A study of Mus musculus with 24 samples.

Results

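The occupancy of KDM6A was set against dimethylation of histone H3 lysine 4 (H3K4me2) in the 2 control lines of a mouse small cell lung cancer series, line by line, gene by gene and in 1 kb bins of the genome. The regions were chosen by position in the peak lists alone: a bin counted as marked where peaks covered at least 50% of it, and a gene where they covered at least 1 kb of its window, the gene body extended by 10 kb at either end. Of 2722413 bins, 14718 carried KDM6A with H3K4me2 in both lines, 39365 carried H3K4me2 without KDM6A and 1059 carried KDM6A without H3K4me2. The series holds 24 samples, 14 of them with a peak list, and the 2 KDM6A and 2 H3K4me2 libraries of the control lines form the basis of this account.

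The control lines, 159-1 and 1014, are early passage cultures from sgControl RPP tumours and are Kdm6a-WT. RPP mice develop small cell lung cancer, a neuroendocrine tumour, after loss of the tumour suppressors Rb1, Trp53 and Rbl2, and this background is shared by the sgKdm6a RPP lines 236L and 236R (Kdm6a-Mutant), which have no KDM6A list here and were used only for outside comparisons of histone marks. Each mark has 1 library per line, so n = 2 lines throughout, and nothing in the labels places 236L and 236R in separate animals. Cells were taken 24 h after plating. For KDM6A the cells were crosslinked with 2 mM disuccinimidyl glutarate before the formaldehyde fixation that all libraries had, so the antibodies differ in fixation as well as in target.

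KDM6A, also called UTX, removes methyl groups from H3K27, the residue that the Polycomb complex PRC2 methylates. It is also a subunit of the KMT2C and KMT2D complexes, which place H3K4 methylation at enhancers together with Paxip1, Pagr1a, Ncoa6 and the core subunits Wdr5, Rbbp5, Ash2l and Dpy30. H3K4me2 marks promoters as well as enhancers. Neurod1 is a transcription factor that names a neuroendocrine subtype of this cancer.

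Sequences of 5 transcript starts are given as single examples, which need not have the base composition typical of their class. Each is the 250 bases before the start in RefSeq (GRCm38.p6), 5′ to 3′ along the transcript, with CG dinucleotides in capitals. Mycl (chr4:122995681-122995930, plus strand), a MYC family oncogene, and Nkx2-1 (chr12:56536909-56537158, minus strand), the lung lineage factor, were fully covered by both KDM6A and H3K4me2 in both lines. Neurod1 (chr2:79456637-79456886, minus strand) and B2m (chr2:122147437-122147686, plus strand), the light chain of MHC class I, were covered by H3K4me2 without KDM6A. Tac2 (chr10:127724228-127724477, plus strand), which encodes neurokinin B, was covered by KDM6A without H3K4me2.
Mycl: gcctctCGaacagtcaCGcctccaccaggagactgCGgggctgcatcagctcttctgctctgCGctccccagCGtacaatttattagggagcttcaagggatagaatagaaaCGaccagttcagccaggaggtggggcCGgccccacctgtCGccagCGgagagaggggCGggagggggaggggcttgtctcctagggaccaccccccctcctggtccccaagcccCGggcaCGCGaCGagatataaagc
Nkx2-1: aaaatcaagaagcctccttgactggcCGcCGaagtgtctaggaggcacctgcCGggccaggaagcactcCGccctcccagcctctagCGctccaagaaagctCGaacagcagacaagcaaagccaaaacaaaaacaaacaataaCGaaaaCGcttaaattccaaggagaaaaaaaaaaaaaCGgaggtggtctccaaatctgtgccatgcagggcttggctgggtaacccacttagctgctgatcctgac
Neurod1: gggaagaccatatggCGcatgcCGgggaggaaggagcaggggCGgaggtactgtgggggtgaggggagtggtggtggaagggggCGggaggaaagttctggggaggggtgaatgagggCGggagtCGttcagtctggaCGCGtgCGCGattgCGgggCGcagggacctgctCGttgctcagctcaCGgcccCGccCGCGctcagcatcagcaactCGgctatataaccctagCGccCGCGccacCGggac
B2m: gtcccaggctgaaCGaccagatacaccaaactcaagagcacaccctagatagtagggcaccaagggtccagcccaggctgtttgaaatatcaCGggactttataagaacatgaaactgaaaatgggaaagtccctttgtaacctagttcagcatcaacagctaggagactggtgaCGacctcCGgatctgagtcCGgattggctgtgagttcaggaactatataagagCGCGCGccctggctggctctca
Tac2: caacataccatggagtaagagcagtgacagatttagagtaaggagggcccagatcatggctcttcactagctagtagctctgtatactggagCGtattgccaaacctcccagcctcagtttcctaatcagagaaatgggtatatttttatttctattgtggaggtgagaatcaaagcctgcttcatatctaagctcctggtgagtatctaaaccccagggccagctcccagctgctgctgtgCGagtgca
The printed stretches hold 14 CG dinucleotides for Mycl, 9 for Nkx2-1, 22 for Neurod1, 8 for B2m and 2 for Tac2. Neurod1 is thus rich in CG without KDM6A by this measure, while Nkx2-1, with full KDM6A cover, has fewer. In 159-1 a KDM6A peak reached 24.7% of the Neurod1 start window, under the 50% needed, and in 1014 it reached none.

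The peak lists differed in length. KDM6A had 38773 peaks over 34.6 Mb in 159-1 and 29298 peaks over 27.02 Mb in 1014, with median widths of 671 and 709 bp. The H3K4me2 lists were longer, with 58345 peaks over 85.2 Mb for the library titled 159-1 and 56467 over 87.6 Mb for that titled 1014. No read counts were used, so depth is unknown, and a shorter list can hold fewer sites or come from a shallower library. Of the marked KDM6A bins, 16297 were shared, which is 54.2% of those of 159-1 and 68.3% of those of 1014; for H3K4me2, 67432 were shared, or 83.7% and 80.2%.

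The sample titles and the deposited list names disagree on which of the 2 H3K4me2 control libraries is which line. Bins marked by KDM6A only in 159-1 coincided with 497 bins private to the H3K4me2 library titled 159-1 and with 996 private to that titled 1014. Bins marked by KDM6A only in 1014 coincided with 674 private to the library titled 159-1 and with 161 private to that titled 1014. H3K4me1 gave the same order: its 159-1 bins met 460 and 2230 of these private bins, and its 1014 bins 2134 and 975. H3K27me3 gave the other order, with 72 and 19 for its 159-1 bins and 356 and 763 for its 1014 bins. On chromosome 19, KDM6A covered 0.447 Mb in 159-1 and 0.824 Mb in 1014 and H3K4me1 1.36 and 3.77 Mb. H3K27me3 had the same order there, with 0.245 and 4.44 Mb, or 0.541% and 4.03% of its length. H3K4me2, in contrast, covered 2.68 Mb in the library titled 159-1 and 1.90 Mb in that titled 1014. The titles were kept and no sample was moved. Counts over both lines are the same under either reading, and single-line values are given by title, with the other reading beside them where it matters.

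KDM6A lay mostly within H3K4me2, while most H3K4me2 had no KDM6A. Of the KDM6A bins, 79.1% in 159-1 and 84.5% in 1014 also carried H3K4me2 (81.8% ± 3.80, SD, n = 2), and with the list names in place of the titles the mean was 83.8%. Of the H3K4me2 bins, 29.5% and 24.0% carried KDM6A (26.8% ± 3.91, SD, n = 2). Over all bins, 0.541% had KDM6A with H3K4me2 in both lines, 1.45% had H3K4me2 without KDM6A, 0.0389% had KDM6A without H3K4me2 and 96.2% had neither. The lines differed in the other 48849 bins. KDM6A without H3K4me2 was found in 6271 bins of 159-1 and 3699 of 1014, and with both lines required only 1059 remained. The longer H3K4me2 lists enter these shares. With every list reduced, from its highest fold down, to the length of the shortest, 37.1% of KDM6A bins carried H3K4me2 and 33.2% of H3K4me2 bins carried KDM6A. That setting changed both the length of the lists and the strength of the peaks kept.

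At the level of genes, the windows of 8931 of 21883 protein-coding genes (40.8%) carried KDM6A with H3K4me2 in both lines. Another 3927 (17.9%) carried H3K4me2 without KDM6A, 5436 (24.8%) carried neither, and only 12 (0.0548%) carried KDM6A without H3K4me2, while the lines differed on 3577. Of genes with KDM6A, 99.3% in 159-1 and 99.6% in 1014 had H3K4me2, and of genes with H3K4me2, 68.1% and 61.3% had KDM6A. Single lines gave 82 and 38 genes with KDM6A alone, and at equal list lengths there were 1250. The median gene had 1.02 kb of KDM6A in 159-1 and 0.817 kb in 1014, beside 3.53 and 3.59 kb of H3K4me2. By the lower line, 254 genes lay within 5% above the limit of 1 kb and 317 within 5% below it.

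Wide and strongly enriched H3K4me2 peaks carried KDM6A and narrow, weak ones rarely did. KDM6A touched 11.4% and 6.07% of H3K4me2 peaks under 0.5 kb (159-1 and 1014, by title), 55.5% and 43.1% of those of 1 to 2 kb, and 98.98% and 98.1% of those of 5 to 10 kb. A wide peak has more bases on which to meet another peak, so the covered length is the fairer measure. It rose from 8.40% and 4.29% of the narrowest class to 40.01% and 36.1% of peaks of 5 to 10 kb. By the fold that the authors deposited for each peak, used only for rank within a list, the covered length rose from 11.1% and 9.52% in the lowest quintile to 39.4% and 33.4% in the highest. Within H3K4me2 peaks of 2 to 5 kb KDM6A sat centrally: it covered the fifth of 10 equal segments in 57.2% and 53.2% of peaks and the first in 11.5% and 7.25%. Wider peaks had low edges but no central summit that both lines shared. At 5 to 10 kb the third segment was covered in 48.4% and 45.1% of peaks and the fifth in 45.9% and 44.8%, and at 10 kb and more the second in 52.7% and 57.3% and the fifth in 45.0% and 50.5%.

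**Figure D1:**
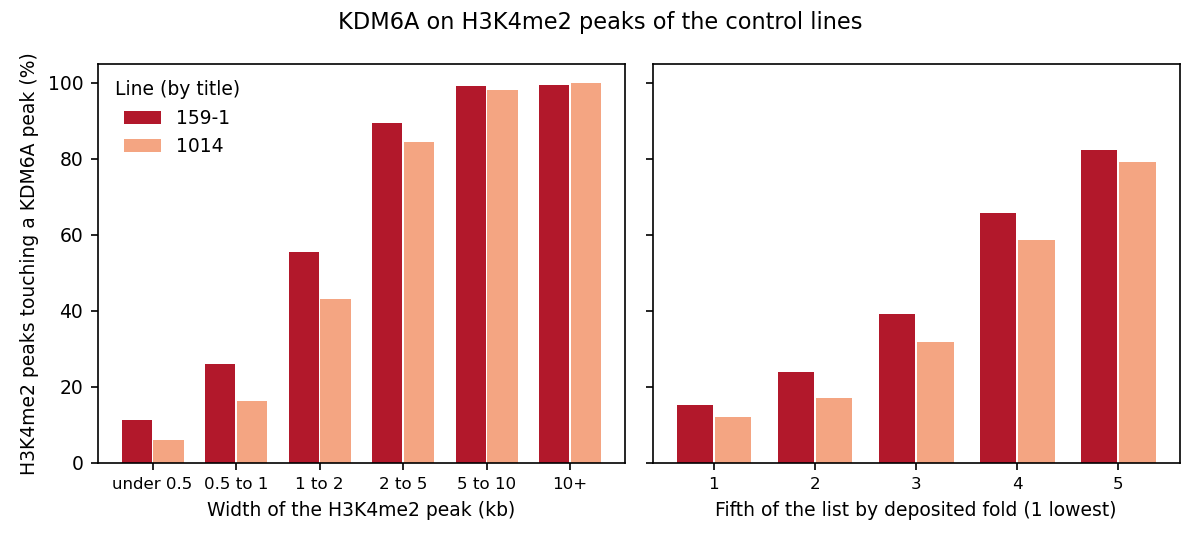
Share of H3K4me2 peaks touched by a KDM6A peak of the same line (percent, by sample title) against the width of the H3K4me2 peak in kb and the quintile of its deposited fold, with 1 bar per line and no error bars. Both lines climb with each step up to the class of 5 to 10 kb, from 11.4% and 6.07% under 0.5 kb to 98.98% and 98.1%.

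KDM6A peaks that touched no H3K4me2 numbered 10423 in 159-1 and 5343 in 1014. They were narrower, with medians of 422 and 429 bp against 816 and 800 bp for those that touched it, and had lower deposited folds, with medians of 3.17 and 3.49 against 3.55 and 3.93. Among KDM6A peaks in the highest fold quintile, 84.8% and 90.4% touched H3K4me2, against 55.7% and 66.7% in the lowest.

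Most regions with both lay near the ends of genes. Around 21262 starts listed in RefSeq, KDM6A covered 43.0% of start positions in 159-1 and 40.6% in 1014, and H3K4me2 63.4% and 62.0%. KDM6A was the narrower of the pair: 2 kb downstream it covered 4.07% and 3.33% of positions, while H3K4me2 still covered 25.7% and 26.8%. Upstream by 2 kb the values were 3.57% and 2.88% for KDM6A and 11.8% and 11.9% for H3K4me2. Within 2.5 kb of a gene end lay 61.2% of the bins with KDM6A and H3K4me2, 49.2% of those with H3K4me2 without KDM6A and 19.6% of those with KDM6A without H3K4me2, beside 7.84% of all bins.

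**Figure D2:**
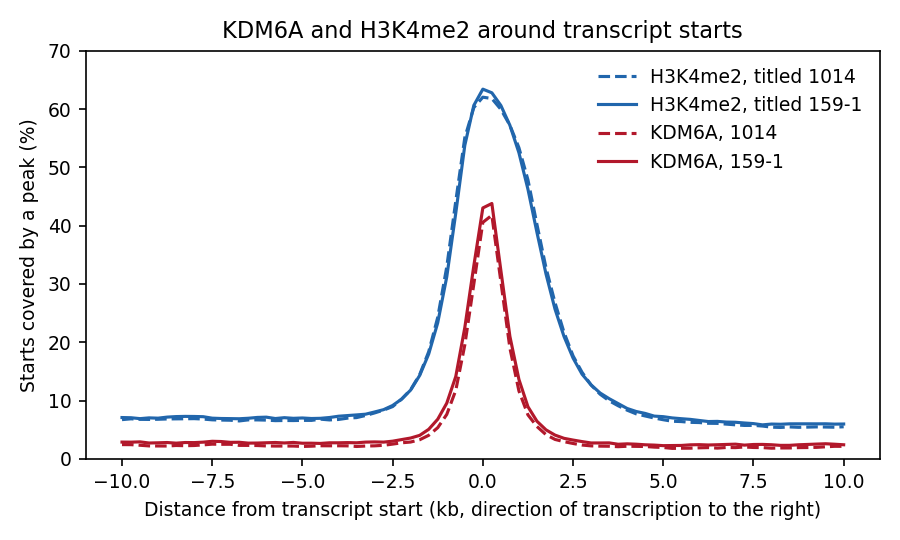
Percent of 21262 RefSeq transcript starts at which a peak covers the position, against distance from the start in kb, for KDM6A (red) and H3K4me2 (blue), with a line per library and no error bars. KDM6A forms a narrow summit of 43.8% and 41.8% just after the start, inside the broader H3K4me2 summit of 63.4% and 62.0%.

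The start windows of 300 bases, 250 before and 50 after the start, differed in base composition between classes, a property that no peak rule used. KDM6A with H3K4me2 covered 6399 starts (30.1%), H3K4me2 without KDM6A 3400 (16%), KDM6A without H3K4me2 18 (0.0847%) and neither 7593 (35.7%). Starts with both had a median of 27 CG dinucleotides and 65.7% GC, starts with H3K4me2 alone 14 and 56.7%, the 18 with KDM6A alone 5 and 53%, and starts with neither 3 and 46.7%. At least 10 CG dinucleotides were present in 95.4% of starts with both, 69.9% of those with H3K4me2 alone and 7.38% of those with neither, beside 56.8% of all starts. The GC box GGGCGG, on either strand, occurred in 73.9% of starts with both and 55.7% with H3K4me2 alone (46.2% of all). The ETS motif CCGGAAG, on either strand, occurred in 20.9% and 12.0% (11.6% of all). The TATA box TATAAA, on either strand, occurred in 4.61% and 8.41%, and in 23.7% of starts with neither (12.6% of all). The E-box CAGCTG, on either strand, did not follow this order, with 13.9% of starts with both, 17.6% with H3K4me2 alone and 15.6% of all. The GC box holds a CG and the ETS motif holds another, so both follow CG content in part. A motif match is only a description of these letters.

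Repressive H3K27me3, the mark that KDM6A removes, covered fewer starts with KDM6A and H3K4me2 than starts of the other 2 large classes. In 159-1 and 1014 it covered 1.13% and 2.69% of starts with both, 12.3% and 18.5% of those with H3K4me2 alone and 7.70% and 12.6% of those with neither. Over bins it covered 1.38% and 2.92% of those with both, 3.23% and 5.88% with H3K4me2 alone, 3.40% and 4.72% with KDM6A alone and 1.50% and 3.82% with neither, beside 1.56% and 3.89% of all bins. Bins with both were thus close to bins with neither, and bins with KDM6A alone were not low. Both mutant lines were also profiled for H3K27me3 and did not share an order: 236R marked 1.45% and 2.51% of the 2 classes, and 236L marked 9.22% and 4.47%. The enhancer mark H3K4me1, in a library set with inputs of its own, covered 20.7% and 18.8% of gene-end bins with both and 40.5% and 38.1% of those with H3K4me2 alone. Away from gene ends it covered 73.6% and 72.8% of bins with both and 67.2% and 68.4% of those with H3K4me2 alone.

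Ranked by KDM6A in the lower of the 2 lines, Gse1, a gene for a coiled-coil protein (chr8:120228501-120581383, mm10), stood first. Its window held 97.0 kb of KDM6A in 159-1 and 101.6 kb in 1014, beside 130.3 and 121.8 kb of H3K4me2. Aopep, which encodes an aminopeptidase, followed with 44.8 and 54.2 kb of KDM6A. Ephb2 (chr4:136647536-136836326), a receptor for ephrin-B ligands, had 39.5 and 40.9 kb. Camta1, a calmodulin-binding transcription factor, had 43.4 and 34.7 kb. The lines gave close values at Gse1 and Ephb2, while at the RNA-binding protein gene Msi2 (46.8 and 32.1 kb) 159-1 had more. 2900026A02Rik (42.0 and 33.5 kb), the zinc finger gene Casz1 (32.5 and 31.1 kb), Nav2 (36.6 and 30.9 kb) and Igsf21 (37.5 and 30.8 kb) were also among the first 10.

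This ranking favours long genes. Across 21883 genes, Spearman's rho between lower-line KDM6A in kb and window length was 0.29, whereas for KDM6A as a percent of the window it was 0.06. The lines ranked genes alike, with a rho of 0.89 for KDM6A and 0.97 for H3K4me2, and the percent of the window under KDM6A followed that under H3K4me2 with a rho of 0.87 in 159-1 and 0.86 in 1014. Genes are not independent replicates, and windows of neighbours overlap, so these are descriptions.

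By percent of the window, the order was another, with shorter genes first since the flanks are of fixed length. The first entry was Gm36327 (60.8% in the lower line), a predicted gene model. Gm40364, Gm40365 and Gm40367 have overlapping windows with the same peaks. H3K4me1 and H3K27me3 were present there as well, and whether reads are split between similar copies was not tested. Mycl followed, with 16.6 kb of KDM6A in 159-1 and 16.3 kb in 1014, or 61.6% and 60.7% of its window. KDM6A there exceeded H3K4me2, at 10.8 and 8.39 kb. Hoxb5 had 73.7% and 56.7%, Nkx2-1 53.9% and 57.8%, and the pioneer factor gene Foxa2 52.2% and 47.4%. At Nkx2-1 and Foxa2 all KDM6A lay inside H3K4me2. The corepressor gene Tle5, the stress gene Gadd45b, Id3, which inhibits bHLH factors, and Lfng, a glycosyltransferase that modifies Notch, were also among the first 10.

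**Figure D3:**
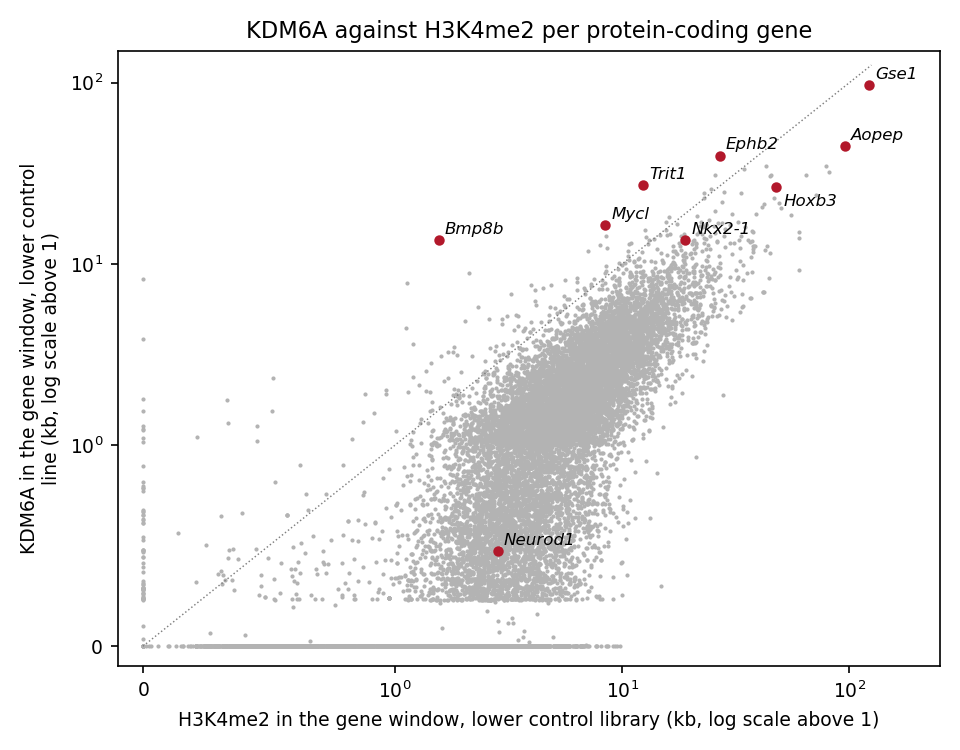
KDM6A against H3K4me2 per gene window, in kb, for 21883 protein-coding genes, each as the lower of the 2 control libraries, on axes that are linear below 1 and logarithmic above. Most genes lie below the dotted line of equal length, while Ephb2, Trit1, Mycl and Bmp8b lie above it with 39.5, 27.3, 16.3 and 13.5 kb of KDM6A.

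Regulators of the neuroendocrine state had the highest median KDM6A length of the gene lists examined. Of 20 such genes, 19 had KDM6A with H3K4me2 in both lines, beside 40.8% of all genes, and the list medians were 5.87 and 5.31 kb of KDM6A. Insm1, a zinc finger regulator of neuroendocrine cells, had 9.02 kb of KDM6A in 159-1 and 7.49 kb in 1014, Foxa1 10.4 and 9.54 kb, and the Notch ligand gene Dll3 3.66 and 4.37 kb. Rfx6, an endocrine islet factor, was the exception, with no KDM6A in either line. Genes of the secretory granule were less uniform: 11 of 20 had both, 4 had H3K4me2 without KDM6A and the lines differed on 5. Sez6 had 12.2 and 8.86 kb and the prohormone convertase gene Pcsk2 8.04 and 6.56 kb, whereas the granin gene Scg2 had none, with 1.74 and 2.28 kb of H3K4me2.

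Genes of the other subtypes carried less than the neuroendocrine regulators. Of the NEUROD1 list 30% had both, and of the POU2F3 list and the list of Notch, YAP and mesenchymal genes 50%, beside 40.8% of all genes. Median KDM6A was 0.687 and 0.6965 kb, 2.17 and 1.14 kb, and 1.853 and 1.225 kb in these lists, beside 1.02 and 0.817 kb for all genes. Of 20 regulators of the NEUROD1 state, 6 had both, 6 had H3K4me2 without KDM6A, 4 had neither and the lines differed on 4. Neurod1 had 0.472 kb of KDM6A in 159-1 and 0.863 kb in 1014, both under the limit, with 2.82 and 4.50 kb of H3K4me2 and 5.20 and 13.99 kb of H3K27me3. Myt1l (8.82 and 5.10 kb) and Neurog3 (4.32 and 7.72 kb) held the most KDM6A in this list. Of 12 genes of the POU2F3 tuft state, 6 had both and 3, among them Pou2f3 itself (0 and 0.735 kb), had H3K4me2 without KDM6A. In the list of Notch, YAP and mesenchymal genes, 12 of 24 had both, led by Tead1 (21.4 and 14.3 kb), the partner of YAP, and Jag2 (9.30 and 7.63 kb), while Ccn2, Vim and Tead2 had none. H3K27me3 of at least 1 kb in both lines was present at 13 of the 20 NEUROD1 genes and at 2 of the 20 neuroendocrine regulators, beside 15.2% of all genes.

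Of 39 HOX genes, 8 (20.5%, beside 40.8% of all genes) had KDM6A with H3K4me2 in both lines, and all were Hoxb2 to Hoxb9. The lines differed on 18 (46.2%, beside 16.3% of all genes), the largest class. Another 12 (30.8%, beside 24.8%) carried neither. Hoxb3 had 44.1 kb of KDM6A in 159-1 and 26.6 kb in 1014, with 47.4 and 59.3 kb of H3K4me2. The Hoxb genes lie side by side, so their windows share peaks. Within the cluster the lines differed in place: Hoxb4 had 19.1 and 7.67 kb of KDM6A and Hoxb7 6.32 and 14.4 kb. H3K4me2 by title ran the other way, with 16.4 and 23.4 kb at Hoxb4 and 24.6 and 14.9 kb at Hoxb7. By title 5.71 kb of KDM6A at Hoxb3 in 159-1 lay outside H3K4me2, while by list name none did. In 1014 none lay outside by title and 1.26 kb by list name. The homeobox gene Pax7 had the same crossed order, with 0.488 and 7.46 kb of KDM6A and 11.5 and 3.46 kb of H3K4me2. Of the 40 developmental transcription factors outside HOX, 21 had both, led by Lmx1b (25.6 and 24.8 kb) and Meis2 (20.4 and 23.6 kb).

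Genes for KDM6 proteins, KMT2 complexes and their partners, and those of PRC2, nearly all had KDM6A with H3K4me2 in both lines. Of all genes, 40.8% did. Of 20 genes for KDM6 proteins, KMT2 complexes and partner acetyltransferases, 18 had KDM6A with H3K4me2 in both lines. Setd1b, an H3K4 methyltransferase, had 12.6 and 13.0 kb, the related demethylase gene Kdm6b 8.91 and 9.02 kb, Kmt2d 3.87 and 3.80 kb and Pagr1a 5.31 and 9.70 kb. Kdm6a itself, on the X chromosome, had 3.20 and 1.36 kb. Its Y-linked relative Uty had no KDM6A, 3.27 and 3.30 kb of H3K4me2 in the control libraries and none in either mutant line. Of 12 PRC2 genes, 11 had both, including the catalytic subunit genes Ezh1 (1.79 and 1.53 kb) and Ezh2 (1.75 and 1.77 kb). Mtf2 had 0.622 and 0.598 kb and so fell in the class of H3K4me2 without KDM6A. For comparison, 10 of 16 housekeeping genes had both, with medians of 2.37 and 1.96 kb, and Rb1, Trp53 and Rbl2 also had both.

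**Figure D4:**
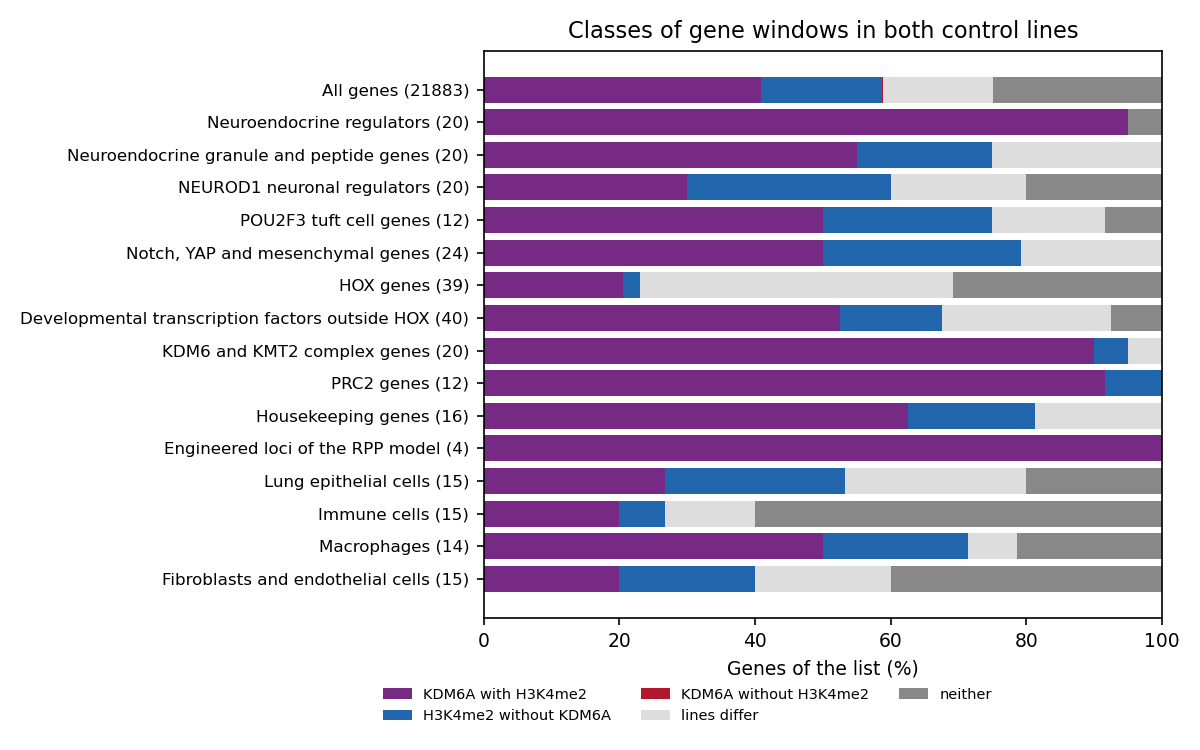
Percent of the genes of each list (number of genes in brackets) in each class over both control lines, with all protein-coding genes on top. The list of neuroendocrine regulators has 95% of its genes with KDM6A and H3K4me2, the NEUROD1 list 30% and all genes 40.8%.

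Markers of several cell types were read for H3K4me2 of at least 1 kb in both control lines, which 71.9% of all genes had. It was found at 19 of 20 granule genes, 5 of 15 immune genes, 7 of 15 fibroblast and endothelial genes, 10 of 15 lung epithelial genes and 11 of 14 macrophage genes. No H3K4me2 in either control library was found at 7 immune genes, including Ptprc, and at 3 fibroblast and endothelial genes, including Col3a1. The same held for 2 lung epithelial genes and for 1 macrophage gene, Adgre1. Of all 21883 genes, 4655 had none in the library titled 159-1 and 4800 in that titled 1014. KDM6A was present at 7 of 14 macrophage genes in both lines, beside 40.9% of all genes. The most came from the complement genes C1qc (7.62 and 12.5 kb), C1qa (7.20 and 11.3 kb) and C1qb (5.75 and 9.73 kb), which neighbour Ephb2 on chromosome 4. The windows of these complement genes overlap, so they share peaks.

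KDM6A outside H3K4me2 covered 8.37 Mb in 159-1 and 4.74 Mb in 1014, spread over many loci. The most in any gene window was at Gse1, which had 26.3 kb outside H3K4me2 in 159-1 and 26.96 kb in 1014. Ephb2 had 19.6 and 22.0 kb and Igsf21 19.5 and 16.9 kb. Next to Mycl, the tRNA modification gene Trit1 had 25.7 and 18.1 kb outside, of 35.9 and 27.3 kb in all. Bmp8b, a secreted BMP ligand, had 13.8 and 13.5 kb of KDM6A with only 2.93 and 1.56 kb of H3K4me2. Of the first 10 genes by this measure, 5 lie on chromosome 4: Ephb2, Trit1, Igsf21, Bmp8b and Camta1. Of all 21883 genes, 1328 (6.07%) lie there. By title, 33.0% and 32.5% of KDM6A length on chromosome 4 lay outside H3K4me2, and by list name 31.8% and 28.5%. Genome-wide the share of KDM6A length outside was lower, since 75.8% and 82.5% lay inside by title and 77.0% and 85.3% by list name. Chromosome 4 also held 9.65% and 10.1% of all KDM6A length, beside 7.13% and 7.14% of H3K4me2 and 9.14% and 8.62% of H3K4me1.

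The 12 genes with KDM6A without H3K4me2 were 1700001K19Rik, 9230019H11Rik, Asmt, Dnajb8, Krtdap, Lbp, Lrrtm4, Mepe, Oxct2b, Pla2g2e, Pld4 and Tmem119. Oxct2b, a ketone body enzyme gene inside Bmp8b, stood apart with 8.28 and 8.76 kb. Oxct2b and Bmp8b lie close to Mycl and Trit1 on chromosome 4. KDM6A also lay outside H3K4me2 at Mycl (7.34 and 8.05 kb) and Trit1 (25.7 and 18.1 kb). Oxct2b and Bmp8b each have a near-identical copy nearby, Oxct2a and Bmp8a, and whether reads were split between copies was not tested. H3K27me3 covered 5.19 and 3.33 kb of the Oxct2b window as well. Next came Asmt (3.82 and 4.60 kb), the last enzyme of melatonin synthesis, and Pla2g2e (2.35 and 6.28 kb), a secreted phospholipase. The others had 1.04 to 2.48 kb in either line. Tmem119 was close to the limit for H3K4me2, with 0.874 and 0.981 kb. Among the 18 starts with KDM6A alone, Tac2, Spdef, an ETS factor gene, and Padi4, a histone citrullinase gene, had full KDM6A cover in both lines and no H3K4me2 in any of the 4 H3K4me2 libraries. The start of Hic1, a repressor gene, had none in the control lines and in 236R and full cover in 236L.

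H3K4me2 without KDM6A was found at many zinc finger genes and on the X chromosome. Among genes with no KDM6A at all in both lines (6318, 28.9%), the most H3K4me2 was at Gm4724, a predicted gene, with 8.65 and 9.76 kb. It was followed by the X-linked Ikbkg, a regulator of NF-κB (9.68 and 7.69 kb), and Araf, a RAF kinase gene (5.98 and 6.20 kb). Zfand1 (5.70 and 6.51 kb), Chtf18 (6.91 and 5.63 kb) and the axon guidance receptor gene Robo3 (5.40 and 5.37 kb) lie on autosomes, as do Rbm47 and Duoxa1, while Pdzd11 and Naa10 are X-linked. Robo3 also carried 6.74 and 22.6 kb of H3K27me3, and Duoxa1 20.6 and 24.3 kb. Of 397 genes named Zfp, 171 had H3K4me2 without KDM6A and 135 had both, shares of 43.1% and 34.0% beside 17.9% and 40.8% of all genes. Olfactory receptor genes had neither in 1083 of 1110.

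The X chromosome had little KDM6A, and in the control lines little of every other mark. It holds 6.28% of all bins. KDM6A covered 0.347 Mb of it in 159-1 and 0.231 Mb in 1014, or 1.00% and 0.855% of KDM6A length. For H3K4me2 the shares were 1.84% and 1.95%, and for H3K27me3 0.132% and 0.230%. Of genes with both, 48 (0.537%) were X-linked, against 331 (8.43%) of those with H3K4me2 without KDM6A and 966 (4.41%) of all genes. H3K4me1 on X was also low in the control lines, at 0.474% and 0.515% of its length, and was 1.41% in 236L and 1.18% in 236R. The Y-linked gene Uty had H3K4me2 in the control libraries only. Whether the control and mutant lines differ in sex chromosomes was not tested.

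The H3K4me2 lists of the mutant lines were not used to form the classes, so they allow an outside comparison: whether control H3K4me2 that lay with KDM6A was still marked in lines with mutant Kdm6a. Bins with KDM6A were still marked in 76.6% of cases in 236L and 89.7% in 236R, and bins without it in 58.6% and 72.0%. Within each line the share was thus higher by 18.0 and 17.6 percentage points for bins with KDM6A, and over the lines by 17.8 (exact two-sided permutation test, p = 0.333). That is the smallest p that 2 values against 2 can give. The test treats the values as unpaired, although both classes were read in the same 2 mutant libraries. Near gene ends the shares were 94.9% and 97.8% with KDM6A against 82.7% and 87.8% without. Farther away they were 47.9% and 76.8% against 35.3% and 56.8% (difference 16.3 points, exact two-sided permutation test, p = 0.667). The lines overlap there, but within each line the share was higher with KDM6A, by 12.6 points in 236L and 20.1 in 236R.

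The difference depended on how strongly the bin was marked in the control lines. Away from gene ends in 236L, bins in the lowest quintile of control fold were marked in 8.83% with KDM6A and 15.1% without, and those in the second in 28.5% and 34.2%. In the highest quintile the order was turned, with 92.2% and 71.3%. In 236R distal bins with KDM6A had the higher share in every quintile, from 40.3% against 36.6% to 98.5% against 84.8%. Near gene ends both lines turned in the lowest quintile, with 26.6% against 42.2% in 236L and 46.1% against 53.9% in 236R, on 154 bins with KDM6A. Bins with KDM6A were the more strongly marked: KDM6A was present at 13.0% of these bins in the lowest quintile and 39.5% in the highest.

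**Figure D5:**
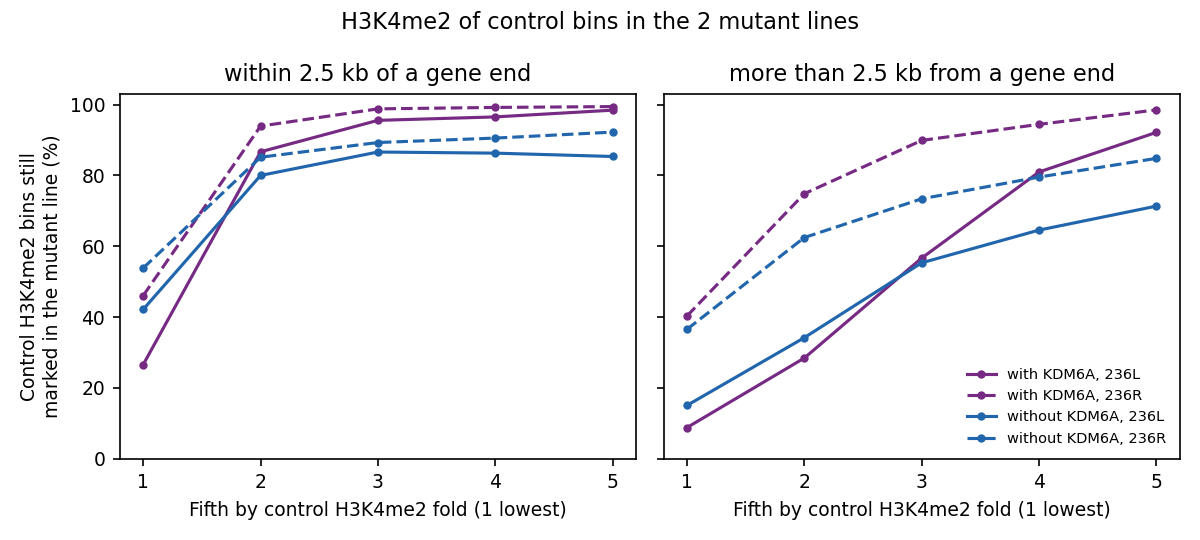
Percent of control H3K4me2 bins that 236L (solid) and 236R (dashed) also marked, by quintile of the control fold, for bins with KDM6A (purple) and without (blue), near to and far from gene ends; points are single libraries without error bars. In the highest quintile far from gene ends the shares with KDM6A are 92.2% and 98.5%, against 71.3% and 84.8% without.

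Per gene, the window of Gse1 had 64.4 kb of H3K4me2 in 236L and 72.0 kb in 236R, below both control values. Ephb2 had 7.17 and 12.7 kb against 32.2 and 26.8 kb in the control libraries, and Mycl 4.78 and 5.61 kb against 10.8 and 8.39 kb. Both mutant lines lay below both control lines at 82 of the 100 genes with the most KDM6A in kb, at 44 of the 100 with the highest percent of the window, at 41.7% of the 8931 genes with KDM6A and H3K4me2, and at 25.4% of all genes. The ranking by percent was thus close to its class. Both lay above both control lines at 4 and 7 of the first 100 genes by kb and by percent and at 13.9% of all. Of the 3927 genes with H3K4me2 without KDM6A, both lay below at 20.5% and above at 25.3%. Genes without control H3K4me2 cannot lie below, yet they enter the share of all genes. KDM6A followed H3K4me2 in the control lines, so ranks by KDM6A also favour genes with high control H3K4me2. The first 100 by kb have long windows (median 150.3 kb, against 37.2 kb for all genes), and the mutant lists were shorter in all (76.1 and 73.7 Mb). Nkx2-1 did not share this order, with 17.6 and 19.8 kb against 18.9 and 19.7 kb, nor did Foxa2, with 18.4 and 20.2 kb against 17.2 and 18.9 kb. At 13 of 14 macrophage genes 236L had the most H3K4me2 of the 4 libraries, with a list sum of 128.2 kb against 42.1, 42.8 and 27.2 kb in 159-1, 1014 and 236R; Adgre1 had 4.97 kb in 236L and none in the others. Its part in the 236L values was not tested.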

How the data were processed

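ChIP-seq peak lists of KDM6A and H3K4me2 in 2 control lines were used, with H3K4me1, H3K27me3 and mutant H3K4me2 lists for outside comparison. The submitters' processing notes name Bowtie2 2.4.2, MACS3 3.0.0a7 and the mm10 build. Threshold, control track and duplicate handling: not given in the sources used here. Every library has a list of its own. The authors deposited for each broad peak a fold enrichment, a linear ratio, and −log10 p-value and −log10 q-value; these only ranked or filtered peaks within a list. Without read counts no interval could be given.

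Peaks of the assembled chromosomes (those on contigs were set aside) were intersected with bins, gene windows (GRCm38.p6 gene table, the assembly of mm10) and RefSeq transcript starts, listed for 79.9% of the 21883 genes, in Python 3.11.15 with numpy 2.4.6, pandas 2.3.3 and scipy 1.17.1. The interval code was tested on simulated data. A gene end is either end of the gene body. Fold quintiles of bins used the H3K4me2 fold in the control lists. Classes and ranks are descriptions without a test, and only the comparison with mutant lines was tested, by exact permutation; p-values measure the spread between these samples, which may be technical. Members and the 15 gene lists (285 genes) were chosen with earlier results of these data known. Named genes are the first 10 by KDM6A kb, by percent, by H3K4me2 without KDM6A and by KDM6A outside H3K4me2, the 3 highest and the lowest of each list, Kdm6a, Rb1, Trp53, Rbl2 and Neurod1; other genes were named after their values were seen, and some genes that the rule names are not reported here. Alternatives covered bin cover and size, gene windows, peak stringency, list length, single lines and the reading of the H3K4me2 labels.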

Additional observations from a re-analysis of the deposited data

How the results depend on the processing

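The mean share of KDM6A bins with H3K4me2 stayed near its value of 81.8% at both other cover limits, with 2 kb bins, in single lines (79.1% to 84.5%) and under the deposited list names. It moved to 86.5% with peaks of q up to 0.001 and to 37.1% at equal covered length. The share of H3K4me2 bins with KDM6A (26.8%) was 32.5% at 25% cover, 20.6% at 75% cover, 22.3% in 2 kb bins, 19.4% with the stricter q, 33.2% at equal length and 24.0% to 29.5% in single lines.

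Bins with KDM6A and H3K4me2 (14718) numbered 26536 at 25% cover, 7353 at 75%, 5074 in 2 kb bins, 9715 with the stricter q and 4729 at equal length, and 20176 to 23787 in single lines. Bins with H3K4me2 without KDM6A (39365) numbered 19099 in 2 kb bins, 8774 at equal length and 56808 to 63931 in single lines. Bins with KDM6A alone (1059) numbered 2397, 585, 360, 700 and 6520 under the same 5 settings, and 3699 to 6271 in single lines.

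Genes with KDM6A and H3K4me2 (8931) numbered 5052 with windows of 2.5 kb around gene starts, 4852 with a limit of 2 kb, 5823 with the stricter q, 4920 at equal length and 9831 to 10943 in single lines. Genes with H3K4me2 without KDM6A (3927) numbered 2388 with flanks of 50 kb, 6598 with the 2 kb limit, 6420 with the stricter q, 1353 at equal length and 5136 to 6216 in single lines. Genes with KDM6A alone (12) numbered 4, 7 and 1250 with 50 kb flanks, the 2 kb limit and equal length, and 38 to 82 in single lines. The share of KDM6A genes with H3K4me2 (99.4%) was 99.1% at gene starts, 99.8% with 50 kb flanks, 70.003% at equal length and 99.3% to 99.6% in single lines. The share of H3K4me2 genes with KDM6A (64.7%) was 47.7%, 80.1%, 42.4% and 47.1% at gene starts, with 50 kb flanks, the 2 kb limit and the stricter q, and 61.3% to 68.1% in single lines. Fewer peaks or samples enter the stricter q, equal length and single-line settings by construction; for the others the cause was not tested.

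H3K27me3 in bins with KDM6A minus bins without (-2.41 percentage points) was -3.71 near gene ends and -1.40 farther away. The difference in kept H3K4me2 (17.8 points) ranged from 11.1 to 18.7 over its alternatives, with p of 0.333 to 0.667. With the line as a replicate block, a test chosen after seeing the data, the difference was 17.8 points with an exact sign-flip p of 0.5, the smallest that 2 lines can give. Unknown depth limits every length and count.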
